A study of Mus musculus with 6 samples.

Results

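The genes described here are 40 genes of glucose transport, glycolysis, pyruvate use and the tricarboxylic acid (TCA) cycle. They were taken by symbol from a list of pathway genes, which was drawn up with earlier results of these data known, and all 40 were found among the 55536 genes of the table of read counts. The table comes from RNA of isolated mouse pancreatic islets, in 2 groups of 3 libraries of mice given as C57B1/6J. Control mice were Klf4+/+;Gcg-iCre and knockout mice were Klf4fl/fl;Gcg-iCre, so both groups carried the Cre driver, which is expressed from the glucagon gene and acts in alpha cells. The comparison asks which transcripts depend on KLF4, a zinc finger transcription factor, in alpha cells. Age, sex and treatment are not given in the labels. Whole islets were sequenced, in which beta cells are the main cell type of mouse islets, and the counts do not separate alpha cells from the others, so fewer cells of a type and less RNA per cell cannot be told apart.

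Glycolysis splits glucose into pyruvate in the cytosol, and the TCA cycle oxidises the carbon of pyruvate in mitochondria. In beta cells this flow serves as the glucose sensor: glucose enters through transporters, is phosphorylated and broken down, and the resulting ATP closes potassium channels and starts insulin release. Beta cells send nearly all pyruvate into mitochondria, through pyruvate dehydrogenase or pyruvate carboxylase, keep lactate dehydrogenase A low, and return cytosolic NADH to the respiratory chain through shuttles such as the glycerol phosphate shuttle. Alpha cells use the same enzymes in the control of glucagon release.

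The libraries held 101277200 to 110243918 counts. Klf4 itself lay between 2015 and 3148 normalized counts (counts divided by each library's size factor) in controls and between 2277 and 2540 in knockouts, with overlapping groups, so the whole-islet count did not check the genotype labels. Xist lay at 77938 to 108105 normalized counts in controls and at 12.4 to 30.2 in knockouts, and the Y-linked gene Ddx3y at 0 in controls and 5599 to 6265 in knockouts, so that sex and genotype cannot be told apart in any result below. The islet label was checked with beta-cell markers, 8 genes that together took 183509 to 202284 CPM (library counts put on a common total) in controls and 199357 to 203696 in knockouts. The 7 alpha-cell markers took 38276 to 56318 CPM in controls and 29266 to 35255 in knockouts. The 8 acinar markers took 5019 to 10340 CPM in controls and 13359 to 18301 in knockouts, and the 7 mesenchymal markers 468 to 627 and 897 to 978. No gene of these 4 lists was at 0 in any library. Of these markers, 3 of 7 alpha-cell genes and 1 of 8 beta-cell genes were lower, 5 of 7 mesenchymal genes were higher, and 0 of 8 acinar genes passed in DESeq2, although all 8 had an unadjusted p under 0.05. The log2 fold changes of the alpha-cell and beta-cell markers lay on both sides of 0, with 4 of 7 and 4 of 8 below 0. In edgeR 3 mesenchymal genes passed and 0 of the alpha-cell, beta-cell and acinar genes, of which 4, 3 and 8 had an unadjusted p under 0.05. The part of these differences in cell make-up in the results below was not tested.

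One gene of the 40 changed. Gpd2, the mitochondrial glycerol-3-phosphate dehydrogenase, fell in the knockout libraries, and the other 39 did not pass an adjusted p of 0.05 in DESeq2 (Benjamini-Hochberg over all genes). That is 0 of 40 genes higher and 1 of 40 lower. Over all 17797 genes given an adjusted p, 2.19% passed, 1.53% higher and 0.657% lower, so the share among these genes was near the background. The edgeR quasi-likelihood test called 0 of the 40, against 0.115% of all genes, with 8 of the 40 at an unadjusted p under 0.05, against 2012 of the 17797 genes. In DESeq2, 10 of the 40 had an unadjusted p under 0.05, against 2054 of the same 17797 genes and 9.03% of all 25119 genes given a p. The count rose from 1 to 4 without control replicate 1 (with Fh1, Hk2 and Hk3), to 3 without control replicate 3 (with Eno2 and Pfkfb2), and to 2 without knockout replicate 2 (with Aldoc) or without knockout replicate 3 (with Hk2). Gpd2 passed in each of these fits. Over all genes given an adjusted p, 2.49%, 6.28%, 2.25% and 1.49% passed in these fits, in the same order.

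The log2 fold changes of the 40 genes had a median of -0.08, against -0.01 over all genes given an adjusted p. They lay below 0 for 33 of the 40, against 51.6% of all genes. The knockout libraries lay entirely below the controls for 7 genes (Gpd2, Fh1, Dld, Mdh2, Pkm, Pdhb and Gpi1), against 8.54% of the 15811 genes with a mean of at least 50 normalized counts, and entirely above them for 2 (Hk2 and Hk3), against 9.42%. All 40 genes passed the filter on low counts and had such a mean, but Hk3, at 32.0 in controls and 74.4 in knockouts, reached it only through the group in which it was high, so its place in that count is partly set by the filter. The median rested on control replicate 3: without it, the median was -0.01, and 22 of the 40 lay below 0.

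**Figure D1:**
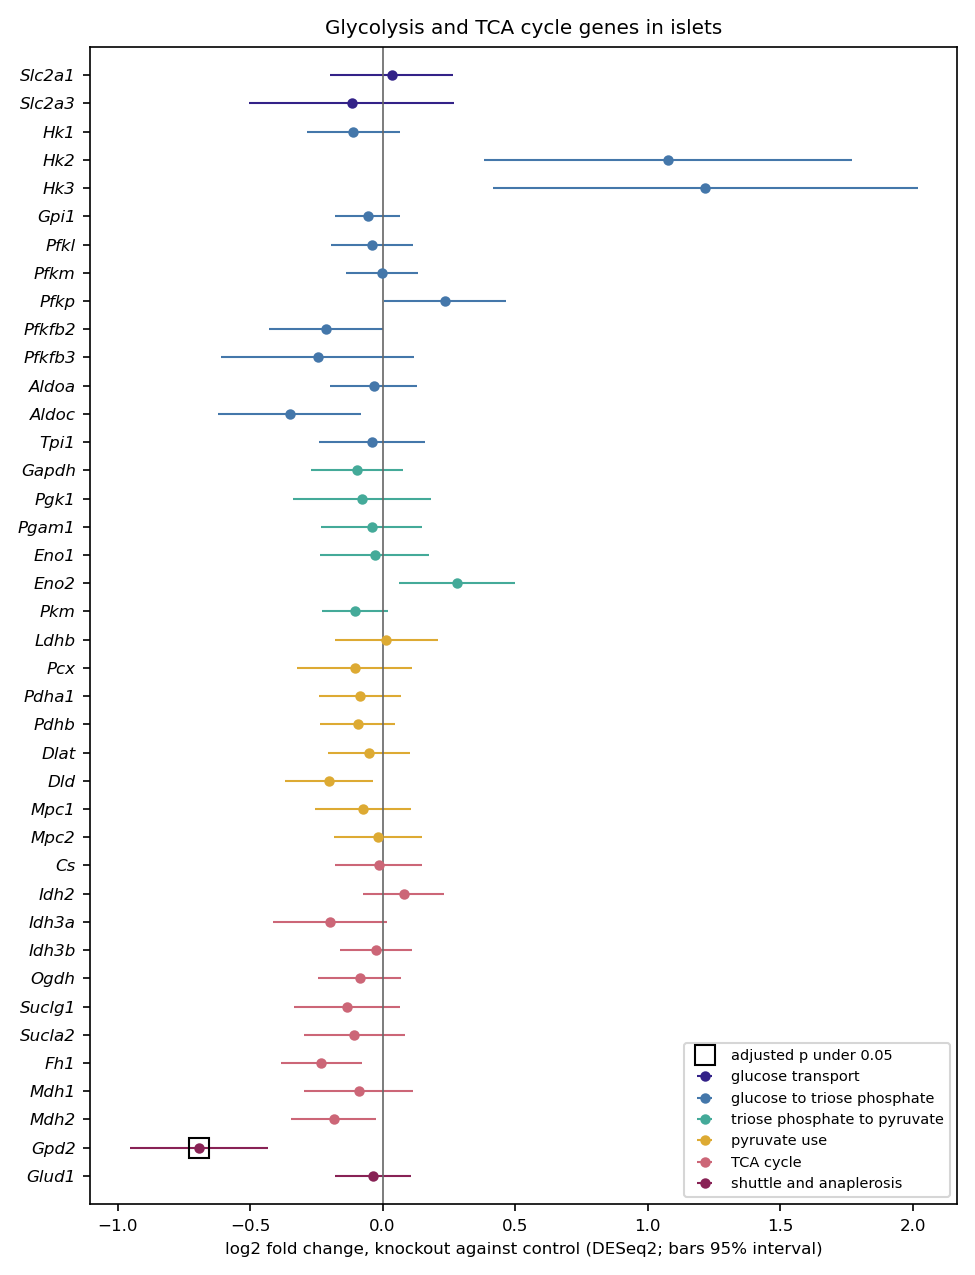
Log2 fold change of each of the 40 genes, knockout against control (x axis), with its 95% interval, by step of the pathway; the square marks the 1 gene past an adjusted p of 0.05. Most intervals cross 0 close to the line, Gpd2 lies at -0.69, and the weakly expressed Hk2 and Hk3 have the widest intervals.

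For the genes that did not pass, the counts set limits on the size of a change in whole islets. They set none for alpha cells alone, which the counts do not separate. Of these 39 genes, 24 had a 95% interval that lay entirely within 1.25-fold in either direction. The interval for Pfkm, the muscle-type phosphofructokinase, reached from -9.12% to 9.71%, and that for Gpi1, glucose-6-phosphate isomerase, from -11.6% to 4.64%. The other 15 intervals reached further, most of all those of Hk2 (30.5% to 241%) and Hk3 (33.6% to 305%). The intervals are not adjusted for the number of genes, so those of Hk2 and Hk3 can exclude no change although neither gene passed. The spread between libraries was small for most of the genes: the coefficient of variation had a median of 8.78% over the controls and 5.15% over the knockouts.

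Gpd2 (ENSMUSG00000026827, chromosome 2, 57237635 to 57370719, plus strand, GRCm38) encodes the enzyme of the inner mitochondrial membrane that passes electrons from cytosolic glycerol 3-phosphate to the respiratory chain. Control replicates 1 to 3 held 18642, 20356 and 14820 normalized counts, and knockout replicates 1 to 3 held 9260, 12705 and 11321. Every knockout library lay below every control, and the lowest control lay above the highest knockout. Controls averaged 17939 ± 2834 and knockouts 11095 ± 1734 (SD, n = 3). The log2 fold change was -0.69 ± 0.13 (SE), a change of -38.2% with a 95% interval from -48.4% to -25.9% (DESeq2 adjusted p = 6.78e-05). In edgeR the value was -0.69 with an adjusted p of 0.172. Gpd2 passed in 12 of 13 alternatives run at the same threshold without the replicate block, with edgeR the exception, and its log2 fold change lay between -0.81 and -0.58 when libraries were left out. A non-coding gene on the opposite strand covers 7.44% of its exon bases but held a mean of only 202 counts.

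RefSeq lists 2 transcription starts for Gpd2, and the windows from 250 bases before to 50 after each are shown because this was the gene that fell. They lie on the plus strand of GRCm38.p6 at chr2:57237428-57237727 and chr2:57238132-57238431. Capitals mark the letters CACCC, the core of the sites bound by KLF proteins, and ACGTG, the core shared by E-boxes and hypoxia response elements, each on either strand (GGGTG and CACGT on the reverse). The first window holds CACCC once and ACGTG 0 times, and the second holds ACGTG once and CACCC 0 times.
Gpd2 first start: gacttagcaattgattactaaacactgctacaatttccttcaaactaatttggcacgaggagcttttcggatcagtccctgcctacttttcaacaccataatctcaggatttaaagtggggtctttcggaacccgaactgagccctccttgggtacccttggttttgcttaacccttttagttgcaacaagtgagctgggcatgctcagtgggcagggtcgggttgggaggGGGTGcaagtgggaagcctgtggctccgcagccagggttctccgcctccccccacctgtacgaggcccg
Gpd2 second start: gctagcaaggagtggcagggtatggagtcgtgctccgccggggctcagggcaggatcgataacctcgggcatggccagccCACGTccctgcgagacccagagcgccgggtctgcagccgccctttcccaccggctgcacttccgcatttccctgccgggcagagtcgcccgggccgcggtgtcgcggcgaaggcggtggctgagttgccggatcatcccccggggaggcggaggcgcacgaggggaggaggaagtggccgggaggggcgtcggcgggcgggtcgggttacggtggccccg
Such a match is a description of the letters and not of a bound site. Gene counts do not show which start was used.

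Its partner in the shuttle, the cytosolic enzyme Gpd1, was not among the 40 genes. Gpd1 had 3656, 4112 and 3423 normalized counts in controls and 4462, 4023 and 4029 in knockouts, a log2 fold change of 0.16 ± 0.10 that did not pass (DESeq2 adjusted p = 0.554). Per length, in TPM (counts scaled to exon length and then to the library total), Gpd2 stood at 63.2 ± 10.5 in controls and 39.0 ± 5.59 in knockouts, and Gpd1 at 29.0 ± 2.59 and 32.5 ± 2.25. Gpd2 thus made up 66.2% to 69.7% of the TPM of the pair in controls and 48.4% to 58.8% in knockouts, 2 ranges that did not overlap. Glud1, glutamate dehydrogenase, which feeds the TCA cycle from glutamate, lay level at 14799, 14160 and 14592 normalized counts in controls and 14666, 14650 and 13162 in knockouts. Its log2 fold change was -0.04 ± 0.07.

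The 2 glucose transporters among the 40 genes did not differ beyond the spread between libraries. Slc2a1 held 1131, 1112 and 1357 normalized counts in controls and 1142, 1262 and 1282 in knockouts. Slc2a3, the transporter typical of neurons, held 813, 816 and 643 in controls and ran from 511 to 905 in knockouts, the widest range of the pair. Their 95% intervals ran from -12.7% to 20.3% and from -29.5% to 20.7%. The main islet transporter, Slc2a2, was not among the 40 genes. It had 117715, 112997 and 106033 normalized counts in controls and 97350, 105917 and 82108 in knockouts. These groups did not overlap, but knockout replicate 2 came close to control replicate 3. Its log2 fold change of -0.24 ± 0.10 did not pass (DESeq2 adjusted p = 0.238) and was -0.14 without knockout replicate 3.

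Of the 12 genes that carry glucose to triose phosphates, 0 passed in DESeq2, with 5 at an unadjusted p under 0.05, and 0 in edgeR. Over the 17797 genes given an adjusted p, 2054 had such a DESeq2 p, the background for this and the later steps. Hexokinases phosphorylate glucose in the first step. Hk2, the insulin-regulated hexokinase of muscle and fat, held 73.4, 46.1 and 46.7 normalized counts in controls and 125, 143 and 82.8 in knockouts. Hk3, a hexokinase typical of myeloid cells, held 41.7, 28.8 and 25.5 in controls and 90.7, 55.7 and 76.8 in knockouts. For both, every knockout library lay above every control. Their log2 fold changes were 1.08 ± 0.35 and 1.22 ± 0.41 (SE), with DESeq2 adjusted p-values of 0.0797 and 0.0902, just outside the threshold. Without control replicate 1, the highest control for both genes, they passed at 0.0298 and 0.0491, and Hk2 also passed without knockout replicate 3 (0.0487). Without knockout replicate 1 their DESeq2 adjusted p-values were 0.469 and 0.584, and in edgeR 0.326 and 0.308. Of the alternatives at the same threshold without the replicate block, Hk2 passed in 2 of 13 and Hk3 in 1 of 12. The 5 macrophage markers summed to 82.5 to 94.7 CPM in controls and 81.1 to 95.6 in knockouts, and none was at 0 in any library. By gene, 4 of the 5 had a log2 fold change above 0 (median 0.21), 3 had every knockout above every control, and 1 passed, higher (DESeq2). The 4 adipocyte markers summed to 14.8 to 17.6 CPM in controls and 20.7 to 24.8 in knockouts, nearly all of it Fabp4, which passed, higher (log2 fold change 0.46), while Plin1 and Adipoq were at 0 in most libraries. The 5 duct markers summed to 243 to 264 CPM and 277 to 334, with 1 of the 5 higher and 2 with a log2 fold change below 0, the lowest -0.51. The part of these cell types in the counts of Hk2 and Hk3 was not tested. Hk3 also shares 34 bases, 0.923% of its exons, with Unc5a on the opposite strand, which held a mean of 6811 counts, so its low count is uncertain. Hk1, the common hexokinase, held 2573, 2696 and 2621 in controls and 2263, 2416 and 2631 in knockouts. Its log2 fold change of -0.11 ± 0.09 was -0.06 without knockout replicate 1 and -0.17 without knockout replicate 3.

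The start windows of Hk2 (minus strand, chr6:82774405-82774704, GRCm38.p6) and Hk3 (minus strand, chr13:55021336-55021635) are shown because these 2 genes had the largest fold changes of the 40. The same letters are in capitals. The Hk2 window holds ACGTG 2 times and CACCC 2 times, and the Hk3 window ACGTG once and CACCC 0 times.
Hk2: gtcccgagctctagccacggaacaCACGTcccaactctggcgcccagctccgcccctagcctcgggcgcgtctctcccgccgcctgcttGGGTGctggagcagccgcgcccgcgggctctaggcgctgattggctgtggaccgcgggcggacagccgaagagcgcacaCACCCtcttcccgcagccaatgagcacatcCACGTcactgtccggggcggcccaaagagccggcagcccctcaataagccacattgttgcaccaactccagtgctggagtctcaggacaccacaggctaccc
Hk3: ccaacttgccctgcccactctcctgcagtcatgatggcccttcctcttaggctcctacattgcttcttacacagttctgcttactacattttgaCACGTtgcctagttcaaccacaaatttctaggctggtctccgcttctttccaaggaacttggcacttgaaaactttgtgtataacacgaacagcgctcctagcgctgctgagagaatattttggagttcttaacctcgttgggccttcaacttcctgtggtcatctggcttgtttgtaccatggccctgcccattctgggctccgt
Both genes were rare: Hk2 had 0.172 to 0.539 TPM and Hk3 0.156 to 0.571 TPM over the 6 libraries.

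Phosphofructokinase commits sugar phosphate to glycolysis. Pfkm and Pfkl, the muscle and liver types, had log2 fold changes of -0.00 and -0.04. Pfkp, the platelet type, held 3348, 3157 and 3732 normalized counts in controls and 3640, 3705 and 4708 in knockouts, where replicate 3 stood above the others. Its log2 fold change of 0.24 ± 0.12 did not pass (DESeq2 adjusted p = 0.415) and was 0.11 without that library. Pfkfb2 and Pfkfb3 make and break fructose 2,6-bisphosphate, the main activator of phosphofructokinase. Pfkfb2 held 7332, 6144 and 5550 in controls and 5693, 5629 and 5078 in knockouts (-0.21 ± 0.11, adjusted p = 0.433). It passed without control replicate 3, its lowest control (-0.30, DESeq2 adjusted p = 0.0368), and shrank to -0.10 without control replicate 1, its highest (adjusted p = 0.751). Pfkfb2 also shares 17.4% of its exon bases with Gm29427 on the same strand, which held a mean of only 19 counts. Pfkfb3 held 1548, 1235 and 989 in controls and 1131, 1236 and 815 in knockouts (-0.25 ± 0.19), a value that ran from -0.39 without control replicate 3 to -0.07 without control replicate 1, with -0.09 without knockout replicate 3.

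Aldolase splits the sugar, and Tpi1 interconverts the 2 trioses. Aldoc, the aldolase typical of brain, held 1722, 1818 and 1610 normalized counts in controls and 1147, 1629 and 1263 in knockouts. Knockout replicate 2 lay just above the lowest control. The log2 fold change of -0.35 ± 0.14 did not pass (DESeq2 adjusted p = 0.194), but did without knockout replicate 2 (-0.51, adjusted p = 0.00143). Without knockout replicate 1 it was -0.25 (DESeq2 adjusted p = 0.82). Aldoa, the common aldolase and per length the highest of the 40 genes, lay between 39301 and 46014 in all 6 libraries, with a log2 fold change of -0.03 ± 0.08. A second gene model with the symbol Aldoa, just upstream on the same strand (chromosome 7, 126800790 to 126809108), held 37.1 to 96.8 normalized counts and was not merged with it. Tpi1 lay between 8175 and 10321 and Gpi1 between 16456 and 17985, with log2 fold changes of -0.04 and -0.06.

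**Figure D2:**
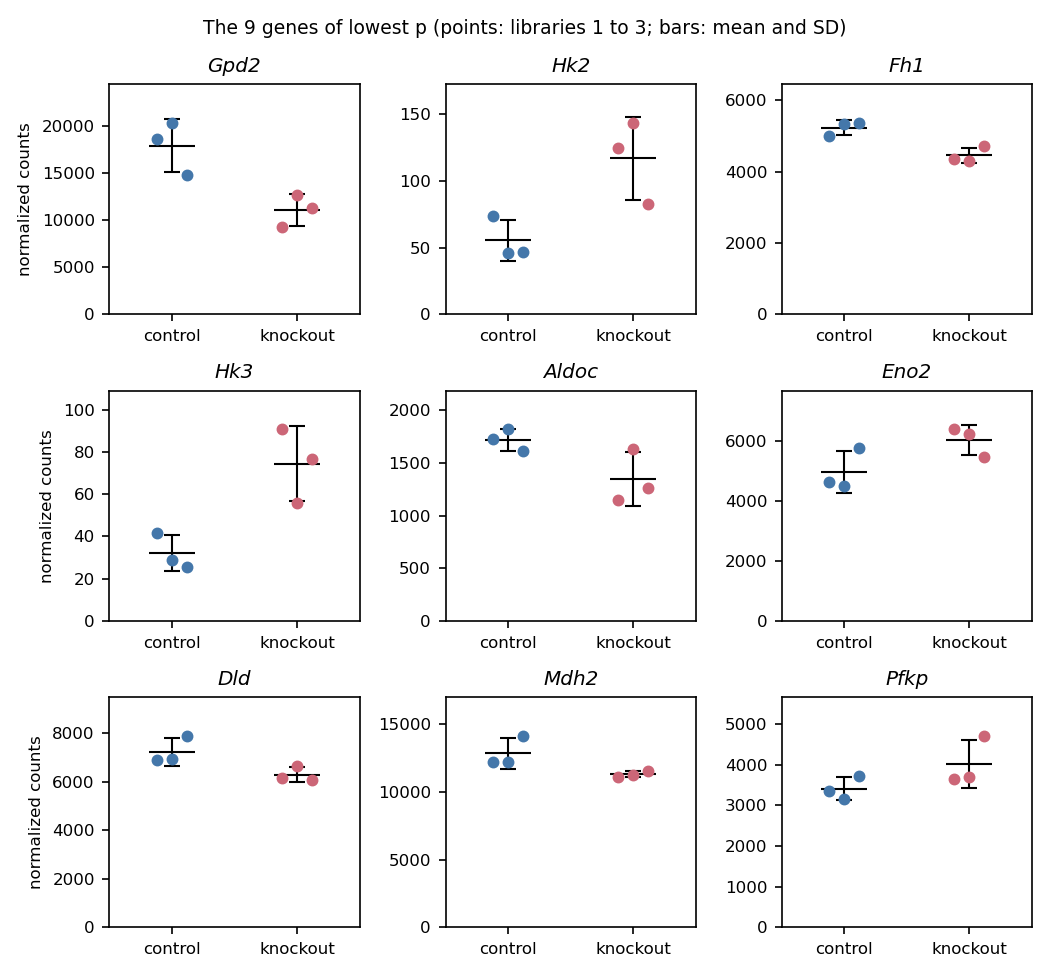
Normalized counts (y axes, from 0) of the 9 genes with the lowest p among the 40, in control and knockout libraries (points), with mean and SD (bars). Gpd2, Fh1, Dld and Mdh2 have every knockout below every control, Hk2 and Hk3 every knockout above, and Aldoc, Eno2 and Pfkp overlap.

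The 6 genes of the second stage, which harvests ATP and NADH between triose phosphate and pyruvate, did not pass in DESeq2 (0 of 6, with 1 at an unadjusted p under 0.05) or in edgeR (0 of 6). Eno2, the neuronal and endocrine enolase, went against the others: it held 4639, 4501 and 5758 normalized counts in controls and 6389, 6244 and 5456 in knockouts. The groups overlapped through control replicate 3 and knockout replicate 3. The log2 fold change was 0.28 ± 0.11 (DESeq2 adjusted p = 0.207), and it passed without control replicate 3 (0.40, adjusted p = 0.000366). Without knockout replicate 1 it was 0.24 (DESeq2 adjusted p = 0.808). Eno1, the ubiquitous enolase, had a log2 fold change of -0.03 ± 0.10.

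Pkm, pyruvate kinase, held 65142, 64717 and 69226 normalized counts in controls and 62286, 63172 and 59841 in knockouts, a difference in which the groups did not overlap but which was small (-0.10 ± 0.06, DESeq2 adjusted p = 0.583). Pkm shares 15.3% of its exon bases with Gm49759 on the same strand, which held a mean of 1398 counts, so its count is uncertain. Gapdh, the glyceraldehyde phosphate dehydrogenase often used as a reference gene, held 35996, 34548 and 42582 in controls and 34832, 34823 and 36197 in knockouts. Its log2 fold change of -0.10 ± 0.09 went to 0.00 without control replicate 3. Pgk1 and Pgam1, phosphoglycerate kinase and mutase, had log2 fold changes of -0.08 and -0.04, and control replicate 3 was their highest library too, at 7166 and 5534. Near-identical copies of Gapdh elsewhere in the genome, 78 annotated genes, held 2.84% as many counts as Gapdh, so that its reads may be split among them.

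The 8 genes of pyruvate use did not pass in DESeq2 (0 of 8, with 1 at an unadjusted p under 0.05) or edgeR (0 of 8). Pyruvate dehydrogenase, which makes acetyl-CoA, is built from Pdha1, Pdhb, Dlat and Dld. Dld, the subunit it shares with 2-oxoglutarate dehydrogenase, held 6889, 6924 and 7891 normalized counts in controls and 6153, 6654 and 6062 in knockouts, without overlap (-0.20 ± 0.09, DESeq2 adjusted p = 0.263). Pdhb held 6778, 6781 and 6982 in controls and 6038, 6680 and 6527 in knockouts, again without overlap (-0.09 ± 0.07, adjusted p = 0.719), a value of -0.05 without knockout replicate 1. Pdha1, which is X-linked, held 8680, 8847 and 9876 in controls and 8303, 8595 and 8917 in knockouts (-0.09 ± 0.08; -0.03 without control replicate 3), and Dlat had a log2 fold change of -0.05. Pdha1 shares 16.1% of its exon bases with Map3k15 on the opposite strand, which held more counts than Pdha1 did, so its count is uncertain.

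Pcx, pyruvate carboxylase, which supplies oxaloacetate, held 17853, 15109 and 21143 normalized counts in controls and 16964, 17037 and 16282 in knockouts. The 3 knockouts lay inside the range of the controls, and the 95% interval of the change ran from -20.1% to 8.11%. Mpc1 and Mpc2, which form the carrier that takes pyruvate into mitochondria, had log2 fold changes of -0.07 and -0.02. Copies nearly identical to Mpc1 held 11.3% as many counts as it, the largest such share among the 40. Ldhb, the lactate dehydrogenase subunit typical of heart, lay between 1936 and 2313 in all 6 libraries (0.01 ± 0.10).

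The 10 TCA cycle genes did not pass in DESeq2 (0 of 10, with 2 at an unadjusted p under 0.05) or edgeR (0 of 10). Their log2 fold changes lay between -0.23 and 0.08 with a median of -0.10, and 9 of the 10 lay below 0. Without control replicate 3 the median was -0.02, with 7 of 10 below 0. It was -0.15 without control replicate 1 and -0.14 without control replicate 2. Fh1, fumarase, held 4983, 5338 and 5366 normalized counts in controls and 4352, 4305 and 4706 in knockouts, the third lowest p of the 40 (-0.23 ± 0.08, DESeq2 adjusted p = 0.0902). The groups did not overlap. Fh1 passed without control replicate 1 (DESeq2 adjusted p = 0.0438), but its adjusted p was 0.507 without knockout replicate 1. Mdh2, the mitochondrial malate dehydrogenase, held 12179, 12204 and 14141 in controls and 11115, 11252 and 11539 in knockouts, also without overlap (-0.18 ± 0.08, adjusted p = 0.307; -0.11 without control replicate 3).

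The window at the start of Fh1 (minus strand, chr1:175625586-175625885, GRCm38.p6) is shown because Fh1 came nearest to the threshold of the TCA cycle genes. It holds CACCC once, close to its end, and ACGTG 0 times.
Fh1: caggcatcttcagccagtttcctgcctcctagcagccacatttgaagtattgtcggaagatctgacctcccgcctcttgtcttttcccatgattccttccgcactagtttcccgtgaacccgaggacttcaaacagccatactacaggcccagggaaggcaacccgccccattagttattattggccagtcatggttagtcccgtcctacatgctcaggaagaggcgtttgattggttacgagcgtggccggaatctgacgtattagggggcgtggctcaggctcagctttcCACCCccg

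Idh3a and Idh3b are subunits of the NAD-dependent isocitrate dehydrogenase. Idh3a held 4143, 4383 and 4989 normalized counts in controls and 3821, 3525 and 4433 in knockouts (-0.20 ± 0.11). Its value was -0.12 without control replicate 3, -0.13 without knockout replicate 2 and -0.29 without knockout replicate 3. Idh3b lay between 5548 and 5943 in all libraries (-0.02 ± 0.07). Suclg1 and Sucla2 belong to succinyl-CoA synthetase. Suclg1 held 5374, 5878 and 6865 in controls and 5529, 5194 and 5777 in knockouts, and Sucla2 held 5278, 5611 and 6590 and then 5410, 5192 and 5623. Both overlapped between the groups, and for both the highest library was control replicate 3, without which their log2 fold changes of -0.13 and -0.11 went to -0.03 and -0.01. Without control replicate 1 they went the other way, to -0.21 and -0.17. Ogdh, the first subunit of 2-oxoglutarate dehydrogenase, held 32389, 31008 and 36634 in controls and 31654, 31878 and 30735 in knockouts (-0.09 ± 0.08). Over the alternatives without the replicate block its value ran from -0.14 to -0.01, the latter without control replicate 3. Cs, citrate synthase, had a log2 fold change of -0.01 ± 0.08, Mdh1, the cytosolic malate dehydrogenase, one of -0.09 ± 0.10, and Idh2, the NADP-dependent mitochondrial isocitrate dehydrogenase, one of 0.08 ± 0.08.

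Control replicate 3 stood apart from the other libraries across these genes. It was the highest of the 6 libraries for 23 of the 40 genes, including 5 of the 6 genes between triose phosphate and pyruvate and 8 of the 10 TCA cycle genes. Its median log2 deviation from the control mean was 0.10 over the 40 genes, against 0.01 over the genes with a mean of at least 50 normalized counts. Control replicates 1 and 2 had medians of -0.02 and -0.05, and the knockouts of -0.08, -0.06 and -0.04, so control replicate 3 lay farther from the other controls than these lay from the knockouts. Gpd2 did not follow this pattern: control replicate 3 was its lowest control.

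**Figure D3:**
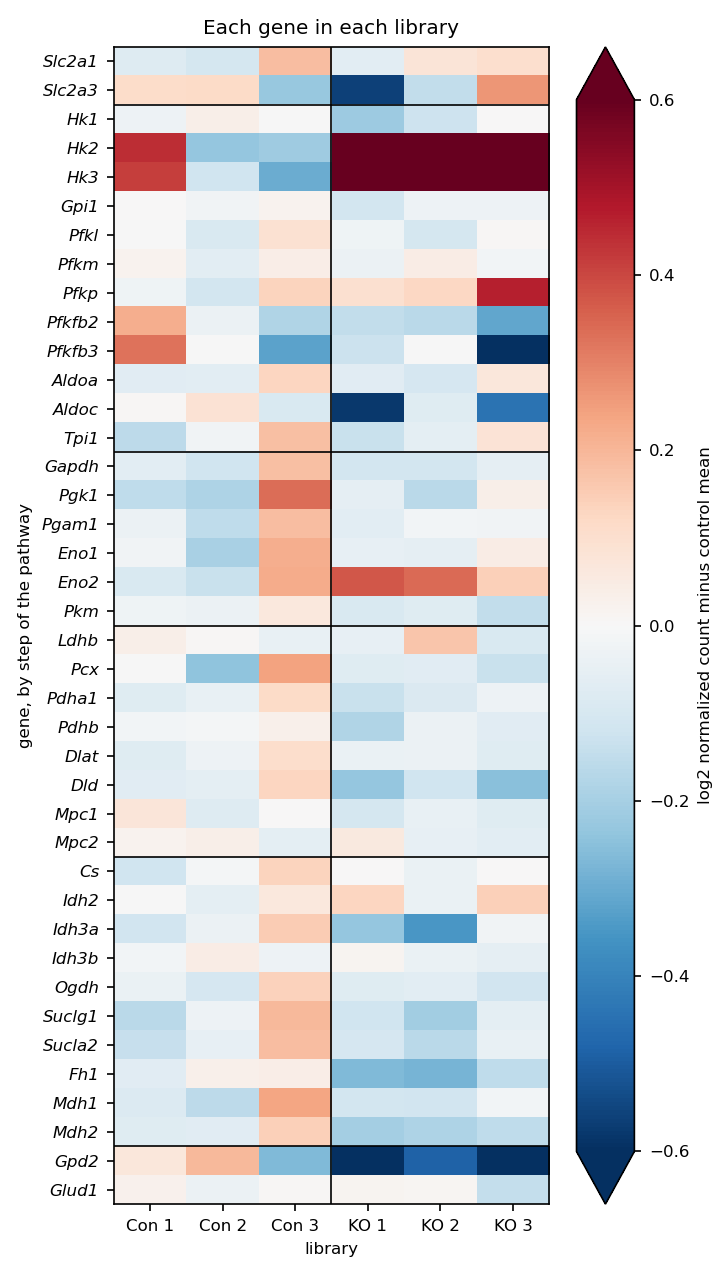
Log2 normalized count of each of the 40 genes (rows, by step of the pathway) in each library (columns, Con for control and KO for knockout) minus the mean of the controls; colours stop at 0.6 in either direction. Control replicate 3 is red for most genes of glycolysis and the TCA cycle, and the row of Gpd2 is blue in all 3 knockouts.

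Per length, the 40 genes spanned a range from 0.333 TPM for Hk2 to 330 TPM for Aldoa. After Aldoa came Pkm (295), Gapdh (204), Ogdh (137), Idh2 (116) and Mdh1 (111), the 6 genes at or above 100 TPM, and 8 genes lay under 10. Of the 39 pairs of neighbours in this order, 32 had ranges over the 6 libraries that overlapped, so most neighbours did not differ beyond their spread. Among those that did, Pkm lay above Gapdh and Gapdh above Ogdh in every library.

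Shares within an enzyme family compare its genes per length. Pfkm made up 63.4% to 67.0% of phosphofructokinase TPM and Pfkfb2 69.5% to 74.2% of the TPM of its family. Eno2 took 24.8% to 27.9% of enolase TPM in controls and 27.6% to 31.9% in knockouts. These shares are descriptions, with no test.

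**Figure D4:**
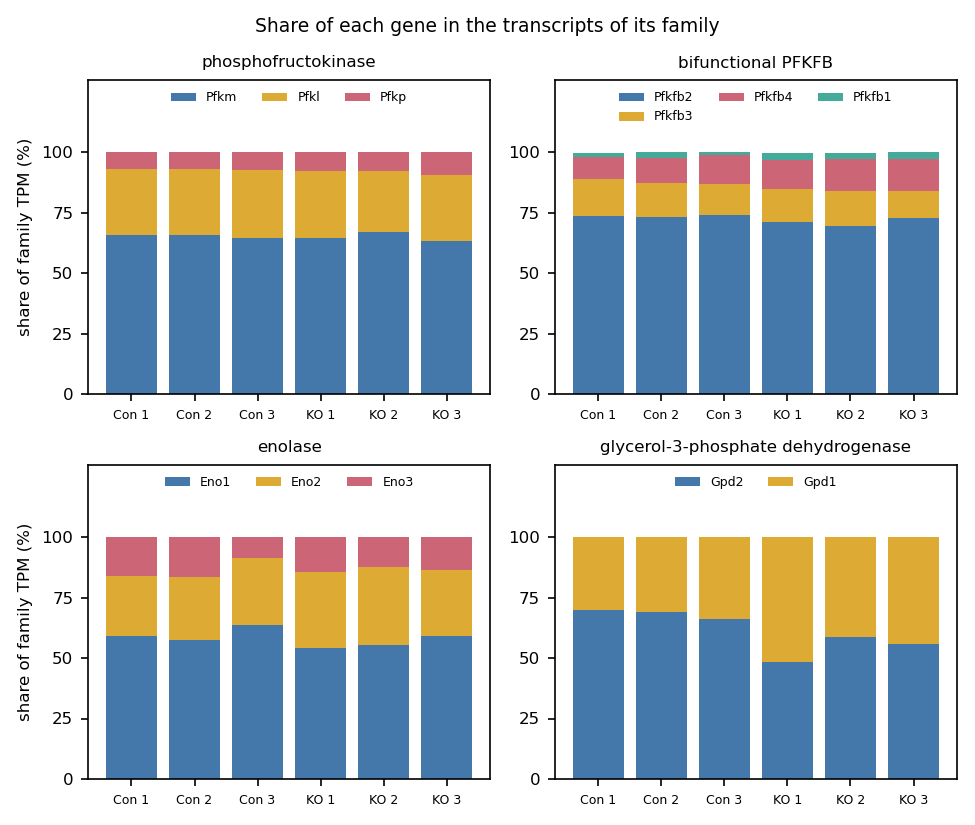
Share of each gene in the summed TPM of its enzyme family (y axes, percent) in each library (Con for control, KO for knockout). Pfkm, Pfkfb2 and Eno1 take the largest share in every library, and the share of Gpd2 against Gpd1 is lower in all 3 knockouts.

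Start windows of 300 bases were listed by RefSeq (GRCm38.p6) for 38 of the 40 genes, 59 windows in all; there were none for Slc2a3 and Idh3a. The letters ACGTG, on either strand, stood in 27 of the 59 windows, 45.8%, against 19.6% of all 32851 windows and 24.1% of those of genes given an adjusted p. By gene, 18 of 38 had the letters in at least 1 window, against 28.0% of the genes given an adjusted p. They stood in windows of 8 of the 12 genes between glucose and triose phosphate and 2 of the 9 TCA cycle genes with a window. CACCC stood in 34 of the 59 windows, 57.6%, against 57.5% of all windows and 63.7% of those of genes given an adjusted p. Windows of 1 gene are not independent: Ogdh has 6, all with ACGTG. No test was made.

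Outside the 40 genes, 59 further genes of the same pathways were followed from a list: other isozymes, the genes that regulate pyruvate dehydrogenase, the remaining TCA cycle genes, shuttle genes and gluconeogenesis. Of these, 55 were given an adjusted p, and 6 passed in DESeq2, 5 higher and 1 lower, which is 10.9% against the background of 2.19%. The list was chosen with earlier results of these data known, so this share cannot be read as a test. In edgeR 0 of the 59 passed, with 15 at an unadjusted p under 0.05, against 2012 of the 17797 genes given a DESeq2 adjusted p. The median log2 fold change of the list was 0.04. The 5 that rose act in gluconeogenesis (Pck2 and Slc37a4), in lactate and alanine metabolism (Ldha and Gpt2) and in the control of pyruvate dehydrogenase (Pdk4).

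Pck2, the mitochondrial phosphoenolpyruvate carboxykinase, rose from 10251, 9418 and 9379 normalized counts in controls to 12231, 12292 and 11304 in knockouts (log2 fold change 0.30 ± 0.07, DESeq2 adjusted p = 0.00538). Slc37a4, which carries glucose 6-phosphate into the endoplasmic reticulum, rose from 7060, 6550 and 7167 to 8201, 8580 and 8570 (0.29 ± 0.07, adjusted p = 0.00588). Gpt2, the mitochondrial alanine aminotransferase, rose from 1577, 1296 and 1507 to 2100, 2113 and 1752 (0.45 ± 0.12, adjusted p = 0.0131). In these 3 genes, and in Ldha and Pdk4, every knockout library lay above every control. That held for 9.42% of the 15811 genes with a mean of at least 50 normalized counts. Ldha, lactate dehydrogenase A, rose from 1762, 1734 and 1759 to 2527, 2021 and 2197 (0.36 ± 0.10, adjusted p = 0.0314), and its share of lactate dehydrogenase TPM ran from 28.3% to 29.4% in controls and from 29.3% to 37.6% in knockouts. Pdk4, a kinase that switches pyruvate dehydrogenase off, rose from 5038, 5485 and 5281 to 6037, 6236 and 6762 (0.27 ± 0.08, adjusted p = 0.0363). Tigar, a phosphatase that lowers fructose 2,6-bisphosphate, fell from 3427, 3552 and 3586 to 2773, 3026 and 2630 (-0.33 ± 0.08, adjusted p = 0.011).

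Of these 59 genes, only Slc37a4 passed without knockout replicate 1, and only Pck2, Pdk4 and Slc37a4 without control replicate 2. Over all genes given an adjusted p, 0.88% and 1.56% passed in these fits. Without knockout replicate 3, Slc37a4, Tigar, Ldha and Pdk4 did not pass. Gpt2 and Pdk4 did not without knockout replicate 2, nor Ldha and Pdk4 without control replicate 1. Knockout replicate 1 also held 596 normalized counts of G6pc and 3141 of Pck1, genes of gluconeogenesis in liver and kidney, against at most 18.6 and 99 in the other 5 libraries. DESeq2 gave both genes no adjusted p because of that outlying library. Leaving it out did not end the call for Gpd2 (-0.58, adjusted p = 0.0099).

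**Figure D5:**
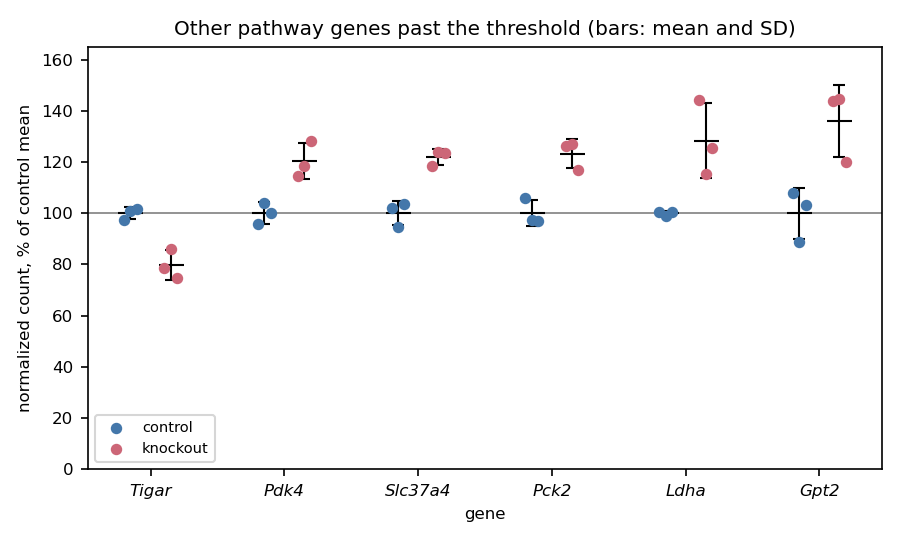
Normalized counts of the 6 further pathway genes past the threshold, as percent of the control mean (y axis, from 0), in each control and knockout library (points), with mean and SD (bars). Tigar lies lower and Pdk4, Slc37a4, Pck2, Ldha and Gpt2 lie higher in all 3 knockouts.

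Many glycolytic genes are induced in hypoxia, so 15 hypoxia-inducible genes from outside glycolysis were listed as well. Of these, 14 were given an adjusted p, and 2 passed in DESeq2, in opposite directions, with a median log2 fold change of -0.00. That is 14.3%, against the background of 2.19%, from a list of few genes that was also chosen with earlier results known. In edgeR 0 of the 15 passed, with 2 at an unadjusted p under 0.05, against 2012 of the 17797 genes given a DESeq2 adjusted p. Ddit4, an inhibitor of mTORC1 that stress hormones also induce, rose from 4955, 3779 and 2648 normalized counts to 5841, 6144 and 5761 (log2 fold change 0.64 ± 0.17, DESeq2 adjusted p = 0.0119). Higd1a, a protein of the inner mitochondrial membrane, fell from 895, 941 and 821 to 542, 693 and 661 (-0.49 ± 0.14, adjusted p = 0.0222). Vegfa, Bnip3, Ankrd37 and the other 9 genes given an adjusted p did not pass. Neither call held without knockout replicate 1, without knockout replicate 3 or without control replicate 2. Ddit4 also did not pass without knockout replicate 2, nor Higd1a without control replicate 1.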

How the data were processed

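Polyadenylated RNA of isolated islets was sequenced in 3 control and 3 knockout libraries, grouped by their titles. The authors deposited 1 table for all 6 libraries, with raw read counts for each gene and no normalization. Per the submitters' processing notes, FastQC, STAR, featureCounts and DESeq2 were used with mm10; versions, annotation and strand setting are not given in the sources used here, so genes that overlap on opposite strands are uncertain. All 55536 gene IDs and symbols match GENCODE M21 (GRCm38), which gave coordinates and exon lengths. 0 columns were left unused. Each library held 101277200 to 110243918 counts, and counting error weighs most in genes of few counts, such as Hk2 and Hk3. Replicates of a group differed by 40.0 to 120 times sampling noise (chi-square over its degrees of freedom), so none was 1 library deposited again. No label says that they came from separate mice, so the p-values measure the spread between these samples, which may be technical.

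DESeq2 1.42.0 (R 4.3.3), named in the series' design, was fitted to all genes with at least 10 counts in total: size factors, genotype as the single term, Wald test, Benjamini-Hochberg adjustment over all genes, threshold 0.05. Intervals are 95% Wald intervals. TPM used the summed exon length of each gene. The alternatives were edgeR 4.0.16 (quasi-likelihood, TMM), TMM factors, other filters, an adjusted p of 0.1, the replicate number as a block and each library left out. The 40 genes, the lists and the tests were chosen with earlier results of these data known. By rule, up to 20 of the 40 genes were given in full, the lowest p first, and of the other lists those past the threshold together with Slc2a2 and Ldha. Slc2a1, Glud1 and Pcx, outside those 20, were also given by library. Gpd1, G6pc, Pck1, Vegfa, Bnip3 and Ankrd37 were named after their values were seen. Some items that the rule would name are not reported here. Near-identical copies were transcripts of other genes aligned (BLAST) over at least 200 bases at 95% identity or more.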

Additional observations from a re-analysis of the deposited data

How the results depend on the processing

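The count of the 40 genes past the threshold was 1 in DESeq2, 0 in edgeR and 4 at an adjusted p of 0.1 (Gpd2, Fh1, Hk2 and Hk3), and ran from 1 to 4 when libraries were left out, always with Gpd2. Over all genes given an adjusted p, 3.55% passed at an adjusted p of 0.1 and 0.88% to 6.28% with a library left out. Gpd2 was -0.69 in edgeR, where its adjusted p was 0.172. The median log2 fold change of the 40 genes ran from -0.105 to -0.011 when libraries were left out, the latter without control replicate 3. Gapdh ran from -0.16 to 0.00081 in those fits and changed sign without that library; it did not pass in any. The further pathway genes past the threshold numbered 6, against 0 in edgeR and 1 to 6 with a library left out. The hypoxia-inducible genes numbered 2, against 0 in edgeR, 1 without a filter, 1 with the replicate block and 0 to 2 with a library left out. What caused these shifts was not tested. Of 448 values of single genes under the alternatives, 399 stayed on their side of 0 and of the threshold, 38 no longer passed, 10 came to pass and 1 changed sign. The median over all genes with a mean of at least 50 normalized counts lay between -0.01 and 0.00 in every fit.

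The replicate numbers did not pair the libraries: the correlation of same-numbered deviations was -0.0482, -0.0587 and 0.0105 over 15811 genes. With the replicate block, 1 of the 40 genes passed, again Gpd2, and 5 of the further pathway genes (Gpt2, Pck2, Slc37a4, Tigar and Pck1); Ldha (0.35), Pdk4 (0.27) and Higd1a (-0.49) did not pass there. Pck1, high in knockout replicate 1, was also gained without the Cook's distance filter, where 7 of the further pathway genes passed. A pair of fits was added after the data were seen, one with both Aldoa models summed and one on autosomal genes only, which leaves out Pgk1 and Pdha1; each called 1 of the 40 genes.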
